A study of Rattus norvegicus with 12 samples.

Results

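The genes of the cytosolic ribosomal proteins were followed in adult rat ventricular myocytes (ARVMs), the contractile cells of the rat heart, isolated and kept in culture. They were found by symbol: names that start with Rpl or Rps and a digit, or with Rplp and a digit, and Rpsa, without the S6 kinase genes. This took 86 of the 17301 gene names, of which 51 are symbols of the large (60S) subunit and 35 of the small (40S) subunit. All 46 canonical large subunit genes and all 31 canonical small subunit genes on the lists used were among them, together with 6 paralogs (Rpl3l, Rpl22l1, Rpl36al, Rpl39l, Rps4y2, and Rps27l), 2 pseudogenes (Rpl37a-ps1 and Rps4x-ps1), and Rps19bp1, which codes for a binding partner of RPS19 and fits the rule by its symbol only.

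Both groups held ARVMs of Sprague-Dawley rats, transduced with an adenovirus at 50 MOI (multiplicity of infection) and harvested 48 h later. Transduction took place after plating, when culture medium took the place of the plating medium. Ad-h-NR4A2 carries the full-length human cDNA of NR4A2, an orphan nuclear receptor, behind the CMV promoter, so that the level reached was set by a strong viral promoter, and Ad-GFP carries enhanced green fluorescent protein. Each group had 6 samples, numbered 24 to 29 in both groups, from 6 independent experiments with cells of different rats, and no untransduced cells were in the comparison. Male rats were used, whose age is not given in the sources used here, and the culture medium held insulin in both groups.

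The FPKM tables implied between 18800000 and 28000000 fragments per library, with a median of 23700000 in Ad-GFP and 23600000 in Ad-h-NR4A2. Nr4a2 lay between 0.626 and 1.4 FPKM in Ad-GFP and between 445 and 592 FPKM in Ad-h-NR4A2, as the labels require, where fragments of the human cDNA and of the rat gene cannot be told apart. The 7 cardiomyocyte markers summed to between 28829 and 35788 FPKM in Ad-GFP and between 25322 and 30675 in Ad-h-NR4A2, with 5 of the 7 called lower (with the block 6), 0 called higher, and none at 0. The 14 markers of fibroblasts, endothelial cells, smooth muscle, and leukocytes summed to 23.6 to 58.2 FPKM in Ad-GFP and 16.4 to 52.4 in Ad-h-NR4A2, and 1 (Col1a2) was at 0 in every sample. Of the 12 tested, 2 were called lower (with the block 5) and 0 higher. The 2 were Myh11 and Col3a1, and Col3a1 lost the call without Ad-GFP sample 25, 26, or 29 (adjusted p = 0.05024 to 0.05558). Over all genes tested, 21.7% were called lower and 19.3% higher, and with the block 32.3% and 27.1%. In RNA of whole cultures, a change in the cells of a type and in the RNA per cell cannot be told apart, and the part of these shifts in the results that follow was not tested.

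The cytosolic ribosome translates mRNA into protein. Its small subunit reads the codons of the mRNA, its large subunit joins the amino acids, and the P proteins on the large subunit form a stalk that recruits translation factors. Ribosomal proteins are made in matched amounts and assembled with ribosomal RNA in the nucleolus. In mammals their mRNAs begin with a terminal oligopyrimidine (TOP) tract, a C followed by a run of C and T at the 5′ end, through which their translation is turned up and down by mTOR and LARP1 together with cell growth. In the heart, ribosome content rises when cardiomyocytes grow, and striated muscle also expresses RPL3L, a muscle version of RPL3.

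This sequence feature was looked up at the annotated transcription starts, since it is the best known one that the symbols share and that the rule did not use. RefSeq promoters on GRCr8 (250 bases before the start and 50 after) were found for 67 of the 86 members. Printed here are 30 bases around the start, 15 on each side, with a run of C and T of at least 6 bases that reaches within 5 bases of the start in capitals; the first of the 2 sets holds canonical members with the run, of which Rpl4, Rpl13, Rpl10a, Rplp0, Rps2, and Rps28 were called higher and Rpl10, Rpl22, Rps24, and Rps27 were not, and the second holds the paralogs and canonical members without the run.
Rpl4 (chr8:73566462-73566491, plus strand): taagTTCTTCCTTTTCCTgtgggagcagcc
Rpl13 (chr19:68062499-68062528, plus strand): ctttgcggtgcccgaTCCTTTCCgctcggc
Rpl10a (chr20:6390518-6390547, plus strand): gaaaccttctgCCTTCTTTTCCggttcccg
Rplp0 (chr12:46718376-46718405, minus strand): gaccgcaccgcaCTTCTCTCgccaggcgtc
Rps2 (chr10:14251833-14251862, plus strand): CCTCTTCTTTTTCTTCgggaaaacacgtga
Rps28 (chr7:15311319-15311348, minus strand): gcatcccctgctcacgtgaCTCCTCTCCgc
Rpl10 (chrX:157205835-157205864, plus strand): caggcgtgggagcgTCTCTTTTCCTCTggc
Rpl22 (chr5:168117946-168117975, plus strand): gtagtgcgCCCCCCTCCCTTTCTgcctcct
Rps24 (chr16:96502-96531, plus strand): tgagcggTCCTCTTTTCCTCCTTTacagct
Rps27 (chr2:177964592-177964621, minus strand): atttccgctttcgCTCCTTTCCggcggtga

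Of the 4 paralogs with a promoter, Rps4y2 held the run and Rpl22l1, Rps27l, and Rpl3l did not, and it was also missing from canonical members that were called higher, such as Rpl11 and Rps3.
Rps4y2 (chr4:183000898-183000927, plus strand): gcgcgcagCTCTCCTCactcgcttgtgctc
Rpl22l1 (chr2:113683181-113683210, plus strand): gctccgtggatatccggttccgagttgcgc
Rps27l (chr8:76443643-76443672, plus strand): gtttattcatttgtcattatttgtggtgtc
Rpl3l (chr10:14258431-14258460, plus strand): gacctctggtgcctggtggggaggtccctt
Rpl11 (chr5:153560788-153560817, minus strand): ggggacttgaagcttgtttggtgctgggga
Rps3 (chr1:163195762-163195791, minus strand): ttcctttcagcggcgcgcggcagcaagatg

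Over all 67 members with a promoter, 45 had the run (67.2%), compared with 19.8% of the 33469 rat promoters in the same table. The run was thus common to members that were called higher and to those that were not. It was not required to begin with a C at the start, as a TOP tract does. Among members above 100 FPKM, 10 of 16 that were called higher had the run (62.5%), and 33 of 44 that were not (75%). These counts include the paralogs Rpl22l1 and Rps27l, which were called, and Rpl3l, which was not, all without the run. Annotated starts can lie some bases away from the true 5′ end. A missing run therefore says only that no run of at least 6 bases reached within 5 bases of the annotated start. In Rps3, for example, the printed window opens with C and T bases (ttcctttc) that lie outside this reach and were not counted.

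Most ribosomal protein mRNAs were abundant, with 76 of 86 at a mean of 100 FPKM or more, which 1049 of the 10950 genes tested reached. FPKM are fragments per length of transcript, scaled to the fragments of the library, which allows a rough comparison between genes. Among the 76 members, shorter transcripts tended to have higher values. Spearman's rho between length and mean FPKM was -0.39 in them and -0.24 in 973 other genes above 100 FPKM. The part of the division by length in this was not tested. In the 76 members with a mean of at least 100 FPKM over the 12 samples, the mean FPKM ran from 130 (Rpl22l1) to 3227 (Rps29), with a median of 895.5, or 824.7 for 47 large subunit symbols and 954.4 for 29 small subunit symbols. The 5 members with the highest mean FPKM were Rps29, a small zinc-binding protein of the 40S subunit (3227 ± 197, SD, n = 12), Rpl41, the smallest ribosomal protein (2298 ± 92.8), Rpl10, which joins the 60S subunit late and lies near its active site (2048 ± 65.9), Rps27 (1889.5 ± 126), and Rplp0, the base of the stalk (1801 ± 144). Rps29 stood clear of Rpl41, as its lowest sample (2953 FPKM) was above the highest sample of Rpl41 (2432 FPKM), whereas Rpl10, Rps27, and Rplp0 overlapped in their samples.

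Within a group the levels were tight. The coefficient of variation over the 6 samples had a median of 6.56% in Ad-GFP and 5.36% in Ad-h-NR4A2 over these 76 members, and 71 of 76 were under 10% in each group. It was over 15% in 4 members in Ad-GFP and 3 in Ad-h-NR4A2 and highest in Rpl30 (27.5% and 23.9%), described further down.

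The plot of level against transcript length shows 10 members below 100 FPKM.

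**Figure D1:**
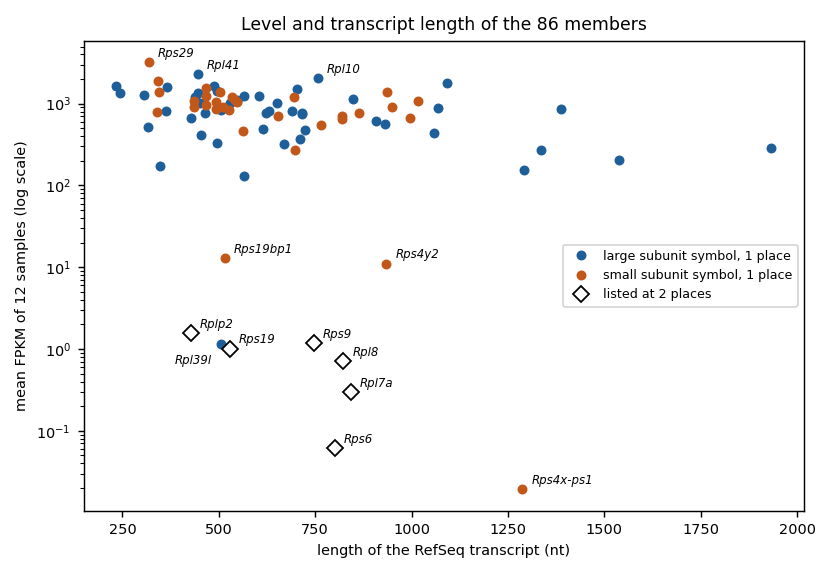
Mean FPKM over 12 samples (log scale) against the length of the RefSeq transcript in nucleotides for the 86 members. Open diamonds are the 6 members listed at 2 places of the genome, which all lie below 2 FPKM, whereas 76 members lie above 100 FPKM.

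Of these, 6 are canonical genes of the ribosome: Rpl7a, Rpl8, Rplp2, Rps6, Rps9, and Rps19. Their mean FPKM lay between 0.0609 and 1.56. Each of the 6 has a RefSeq transcript that is listed at 2 places of the Rn5 assembly, and no other member has. The same was seen outside the ribosome, since of 460 other gene names with a transcript listed at several places 449 (97.6%) had a mean below 2 FPKM, compared with 50.6% of 16755 names listed at 1 place. Why these names are low was not tested. They stay in the counts over all members tested that follow, apart from Rps6, which could not be tested. Counts of members above 100 FPKM do not hold them.

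The counts behind these values were small. Rps6, which codes for the substrate of S6 kinase, was listed at 0 in 5 of 6 Ad-GFP samples and at 0.215 FPKM in the other, and at 0 to 0.135 FPKM in Ad-h-NR4A2. Rplp2, which pairs with RPLP1 on the stalk, had 0.744 to 1.87 FPKM in Ad-GFP and 1.09 to 2.41 in Ad-h-NR4A2, or 5 to 14 fragments. The other low members were Rps19bp1 at 10.5 to 15.3 FPKM, Rps4y2 at 6.84 to 15.3 FPKM, Rpl39l at 0 to 3.75 FPKM, and the pseudogene Rps4x-ps1, with at most 2 fragments in any sample.

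The comparison of Ad-h-NR4A2 with Ad-GFP asks whether forced NR4A2 expression changes the transcripts of ARVMs. Of 86 members, 83 were above 0 in all 12 samples and could be tested, and Rpl39l, Rps4x-ps1, and Rps6 could not. Genes were called at an adjusted p below 0.05 (limma on log2(FPKM + 0.1), Benjamini-Hochberg over all 10950 genes tested). Of the 83, 23 were called higher in Ad-h-NR4A2 (27.7%), compared with 19.3% of all genes tested, and 0 were called lower, compared with 21.7% of all genes. No member was lower at an unadjusted p under 0.05 either, a rule that 26.1% of all genes passed. The 23 comprised 15 of 50 large subunit symbols and 8 of 33 small subunit symbols. The changes were small: the median log2 fold change was 0.10 in the members and -0.02 in all genes tested.

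By direction alone, the log2 fold change was above 0 in 78 of 83 members (94.0%), compared with 46.6% of all genes, and 48 members (57.8%) were higher in all 6 pairs of samples with the same number, compared with 24.1% of all genes. None was lower in all 6 pairs, which 29.1% of all genes were. Groups did not overlap, with every Ad-h-NR4A2 sample above every Ad-GFP sample, for 4 members (4.82%: Rpl7a, Rpl11, Rpl13, and Rps27l), compared with 10.9% of all genes. Among genes that averaged 100 FPKM or more, 21 of 76 members were called higher (27.6%), against 22.8% of all 1049 such genes, and the log2 fold change was above 0 in 72 of 76 members, against 53.7% of such genes.

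With the sample number as a block, 47 members were called higher (56.6%; all genes 27.1%) and 0 lower (all genes 32.3%), of which 27 carry large and 20 small subunit symbols. All 23 members called without the block were among the 47. A fold of at least 1.5 in the group means was reached by 2 called members (2.41%), compared with 7.94% of all genes, and 0 were called lower with such a fold, compared with 7.24% of all genes. These 2 were Rps9 and Rpl7a, both among the names listed at 2 places.

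**Figure D2:**
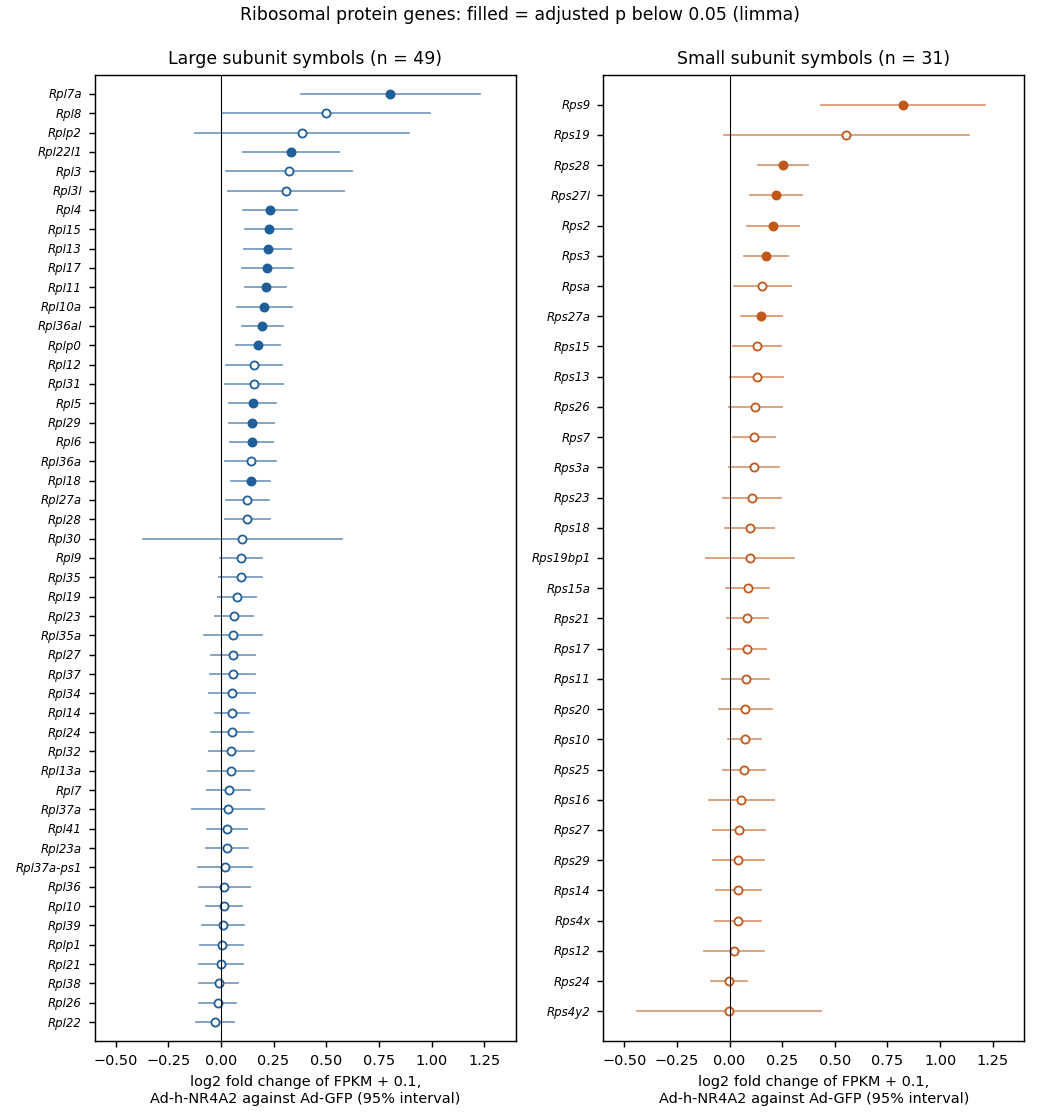
Log2 fold change of FPKM + 0.1 between Ad-h-NR4A2 and Ad-GFP (horizontal axis, point) with its 95% interval (line) for 49 large and 31 small subunit symbols; filled points have an adjusted p below 0.05. Nearly all points lie right of 0, most of them below 0.25, and the wide intervals belong to members with few fragments and to Rpl3, Rpl3l, Rpl30, and Rps4y2.

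Rps9, on the 40S subunit, lay at 0.550 to 1.01 FPKM (median 0.849) in Ad-GFP and at 0.997 to 2.07 FPKM (median 1.57) in Ad-h-NR4A2, which stand for 6 to 16 and 16 to 28 fragments. Its log2 fold change was 0.82 ± 0.18 (SE, adjusted p = 0.002426). Rpl7a had 0.116 to 0.269 FPKM in Ad-GFP and 0.270 to 0.669 in Ad-h-NR4A2, or 2 to 4 against 4 to 11 fragments, with a log2 fold change of 0.80 ± 0.20 (adjusted p = 0.005156). The groups touched without overlap in Rpl7a and overlapped by the lowest Ad-h-NR4A2 sample in Rps9. With so few fragments of each transcript, these folds rest on counts that a handful of fragments can move. Rpl8, with 0.405 to 0.837 FPKM against 0.441 to 1.13, missed the threshold (log2 fold change 0.50, adjusted p = 0.09943; with the block 0.008131).

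Among the well measured large subunit genes, the called ones rose by 10.1 to 25.3% in the group means. The 5 canonical ones with the largest log2 fold change were Rpl4, Rpl15, Rpl13, Rpl17, and Rpl11. Rpl11 (chr5:158155382-158158591 in Rn5), which together with RPL5 and 5S rRNA can bind MDM2 and so link ribosome assembly to p53, lay between 528 and 608 FPKM in Ad-GFP (median 565) and between 615 and 686 in Ad-h-NR4A2 (median 665). The groups did not overlap, and its log2 fold change was 0.21 ± 0.05 (adjusted p = 0.002006; exact permutation test over all 924 splits, two-sided, p = 0.002165, the smallest it can give). Its partner Rpl5 had 773 to 919 FPKM in Ad-GFP (median 851) and 866 to 1001 in Ad-h-NR4A2 (median 942), with groups that overlapped and a log2 fold change of 0.15 ± 0.05 (adjusted p = 0.03067). This call was lost without Ad-GFP sample 25, 27, or 28 or Ad-h-NR4A2 sample 26, 27, or 29 (adjusted p = 0.05308 to 0.06959).

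Rpl4 (chr8:68827918-68833041 in Rn5), which lines the tunnel through which the new protein leaves, had 706 to 871 FPKM in Ad-GFP (median 779.8) and 857 to 1027 in Ad-h-NR4A2 (median 911). Only the highest Ad-GFP sample, number 29, reached into the other group, and the log2 fold change was 0.23 ± 0.06 (adjusted p = 0.007037). Rpl15, Rpl13, and Rpl17 changed by a similar amount, with log2 fold changes of 0.23 ± 0.05, 0.22 ± 0.05, and 0.22 ± 0.06 (adjusted p = 0.00336, 0.003796, and 0.00636). Rpl13 lay between 659 and 781 FPKM in Ad-GFP and between 789 and 900.0 in Ad-h-NR4A2, with no overlap. Rpl15 had 244 to 283 FPKM in Ad-GFP and 276 to 326 in Ad-h-NR4A2, and Rpl17 had 413 to 526 and 505 to 569 FPKM, each with a narrow overlap. Also called were Rpl6, Rpl10a, Rpl18, Rpl22l1, Rpl29, Rpl36al, and Rplp0, besides Rpl7a.

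Of the canonical large subunit genes that were not called, Rpl10, Rpl41, and Rpl7 had among the smaller differences. Rpl10 lay between 1980.1 and 2106 FPKM in Ad-GFP and between 1934 and 2174 in Ad-h-NR4A2, with a log2 fold change of 0.01 (95% interval -0.07 to 0.10). Rpl41, at 2177 to 2429 and 2202 to 2432 FPKM, had a log2 fold change of 0.03 (95% interval -0.07 to 0.12), and Rpl7, a protein on the surface of the 60S subunit, one of 0.04 (95% interval -0.07 to 0.14). The upper ends of these 3 intervals did not exceed 0.14, the log2 fold change of Rpl18, which changed least among the called members.

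Of the stalk genes, Rplp0 was called and Rplp1 was not. Rplp0, which anchors the smaller P proteins, had 1589.6 to 1823 FPKM in Ad-GFP (median 1691) and 1773 to 2043 in Ad-h-NR4A2 (median 1899), a log2 fold change of 0.17 ± 0.05 (adjusted p = 0.01117), with 1 of 6 Ad-h-NR4A2 samples inside the Ad-GFP range. Rplp1 lay between 1325 and 1523 FPKM in Ad-GFP and between 1346 and 1496 in Ad-h-NR4A2, with a log2 fold change of 0.0041 (95% interval -0.10 to 0.11). Rplp2 is among the names listed at 2 places (log2 fold change 0.39, adjusted p = 0.2119). The difference between Rplp0 and Rplp1 was not tested.

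On the small subunit, Rps28 (chr7:18859671-18861040 in Rn5), a small protein at the mRNA exit, had the largest log2 fold change of the 29 symbols of that subunit above 100 FPKM, 0.25 ± 0.06 (adjusted p = 0.002475). It lay between 647 and 795 FPKM in Ad-GFP (median 709.6) and between 785 and 908 in Ad-h-NR4A2 (median 837), and the groups overlapped by 1 sample on each side. Rps2, near the mRNA entry, had 1209.8 to 1474 FPKM in Ad-GFP and 1398 to 1617 in Ad-h-NR4A2, a log2 fold change of 0.21 ± 0.06 (adjusted p = 0.01131), and was the only member called higher that was not higher in all 6 pairs, as Ad-GFP sample 24 was above its partner. Rps3, also at the mRNA entry and known for roles in DNA repair and NF-κB signaling, had 628 to 701 and 692 to 818 FPKM (log2 fold change 0.17 ± 0.05, adjusted p = 0.01093). Its Ad-GFP range was cleared by 5 of 6 Ad-h-NR4A2 samples.

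Rps27a, made as a fusion with ubiquitin, had 598 to 692 FPKM in Ad-GFP and 657 to 757 in Ad-h-NR4A2 (log2 fold change 0.15 ± 0.05, adjusted p = 0.01785). Rpsa, the protein also described as a laminin receptor, had 919 to 1139.5 FPKM against 1005 to 1230.1 and missed the threshold, with a log2 fold change of 0.16 ± 0.06 (adjusted p = 0.06416; with the block 0.003061). Rps29 had a log2 fold change of 0.04 (95% interval -0.08 to 0.16), at 2953 to 3473 FPKM and 3016 to 3558 FPKM.

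**Figure D3:**
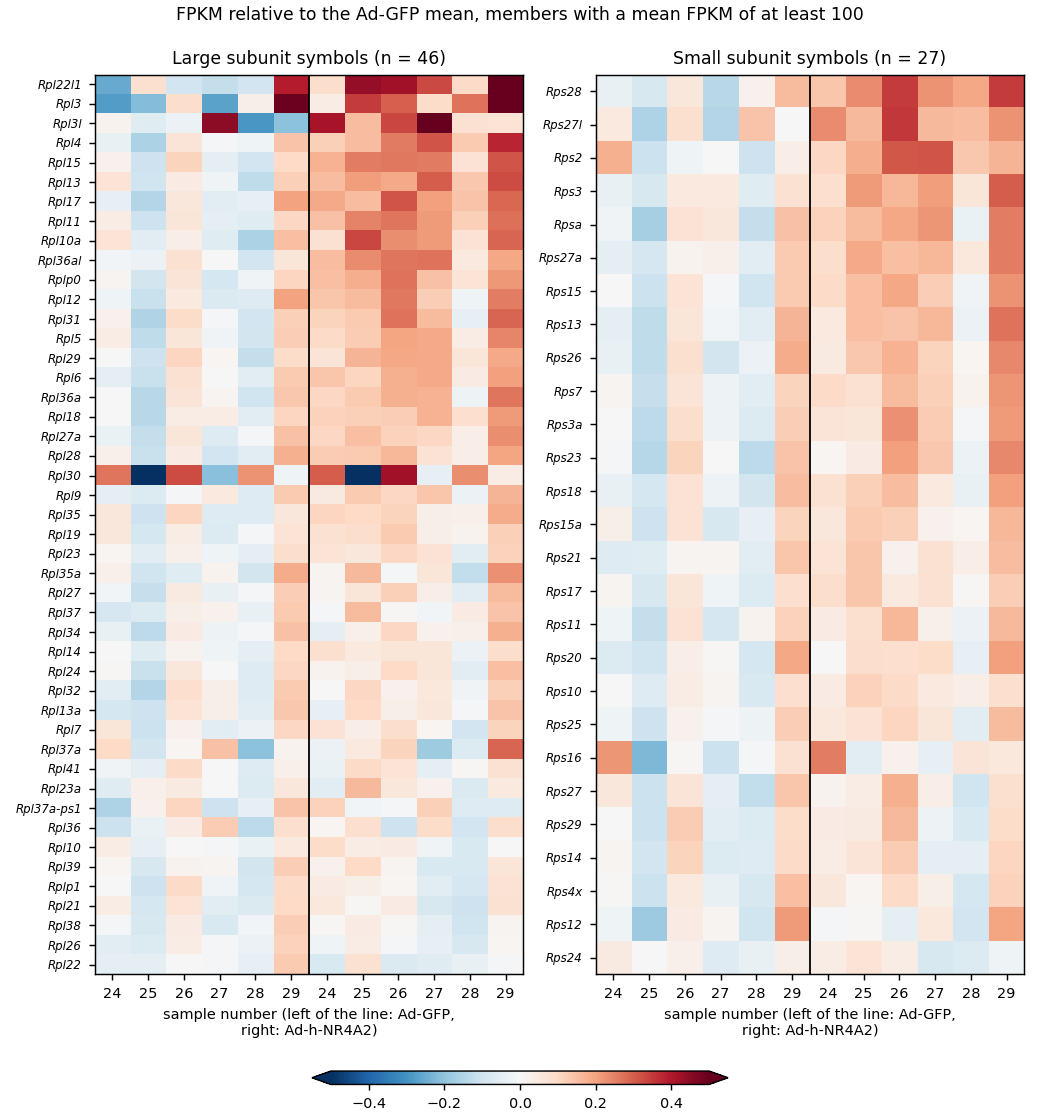
FPKM of each of the 12 samples relative to the Ad-GFP mean (log2, color, cut at 0.5 in both directions) for 46 large and 27 small subunit symbols with a mean FPKM of at least 100, ordered by log2 fold change. Ad-GFP sample 25 is low and Ad-GFP sample 29 high in nearly every row, and Rpl30 is low in both samples numbered 25.

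The members moved together from sample to sample, also within a group, which the heat map shows as columns. Their summed FPKM made up 9.16 to 10.52% of all FPKM in the Ad-GFP samples (mean 9.90 ± 0.48, SD, n = 6) and 9.93 to 10.73% in the Ad-h-NR4A2 samples (mean 10.37 ± 0.30). The ranges overlapped, with sample 25 lowest and sample 29 highest in Ad-GFP. Within each of the 6 numbers, the summed FPKM was higher in Ad-h-NR4A2, by 14.5% in number 25 and by 3.46 to 7.03% in the other 5. Relative to all FPKM of the sample, the rise was smaller, at 10.7% in number 25 and 2.00 to 6.37% in the other 5. Of the 76 members above 100 FPKM, 75 were higher in the Ad-h-NR4A2 sample of number 25, and 60 to 68 in each of the other 5 numbers. The ratio of large to small subunit FPKM lay between 1.369 and 1.402 in Ad-GFP and between 1.362 and 1.396 in Ad-h-NR4A2. Leaving out Ad-GFP sample 25 left 18 members called higher, and leaving out Ad-GFP sample 29 raised the count to 36.

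Samples of the same number resembled each other in most members. After the group means were removed, the 2 samples of a number correlated over the 6 numbers in 73 of 76 members, with a median r of 0.64, given as a description. The strongest case was Rpl30, a 60S protein picked here after its values were seen: it had 388 FPKM in Ad-GFP and 460.5 FPKM in Ad-h-NR4A2 in number 25, whereas the other 10 samples lay between 639.8 and 989.9 FPKM. Rpl30 was higher in Ad-h-NR4A2 in 6 of 6 pairs, and its log2 fold change of 0.10 had an SE of 0.22 without the block (adjusted p = 0.7429) and of 0.03 with it (adjusted p = 0.02627).

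The paralogs were set against their canonical partners. RPL22L1 can replace RPL22, and its gene Rpl22l1 (chr2:135060063-135061997 in Rn5) had the largest log2 fold change of all members above 100 FPKM, 0.33 ± 0.11 (adjusted p = 0.02312), with 97.1 to 152 FPKM in Ad-GFP (median 108) and 123 to 165 in Ad-h-NR4A2 (median 150.2). The call was lost without Ad-GFP sample 24 or Ad-h-NR4A2 sample 25 or 29 (adjusted p = 0.05081 to 0.05335). Rpl22 itself lay between 406 and 460.4 FPKM in Ad-GFP and between 398 and 443 in Ad-h-NR4A2, with a log2 fold change of -0.03 (95% interval -0.12 to 0.06). The ratio of Rpl22l1 to Rpl22 thus went from 0.274 ± 0.034 to 0.352 ± 0.039 (SD, n = 6) and was higher in 6 of 6 pairs. Of 5 paralog pairs compared, this was the only one that passed the adjusted threshold (exact permutation test, two-sided, p = 0.008658, adjusted over the 5 pairs 0.04329). The permutation tests of the paralog ratios did not use the sample numbers, and no paired test was run on them.

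RPS27L is a close relative of RPS27 and known as a p53 target. Rps27l had 227 to 278 FPKM in Ad-GFP and 281 to 323 in Ad-h-NR4A2 without overlap, a log2 fold change of 0.22 ± 0.06 (adjusted p = 0.00702), whereas Rps27, at 1709 to 2048 and 1738 to 2107 FPKM, had one of 0.04 (95% interval -0.08 to 0.17). The ratio of Rps27l to Rps27 was 0.136 ± 0.014 in Ad-GFP and 0.153 ± 0.0056 in Ad-h-NR4A2, higher in 5 of 6 pairs, which missed the adjusted threshold (exact permutation test, p = 0.02381, adjusted 0.05953).

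RPL3L takes the place of RPL3 in ribosomes of adult striated muscle. In all 12 samples Rpl3l was the more abundant of the pair, with a ratio of Rpl3l to Rpl3 of 1.84 ± 0.63 in Ad-GFP and 1.81 ± 0.56 in Ad-h-NR4A2 (exact permutation test, p = 0.9697). The ratio varied between samples from 1.08 to 2.87. Rpl3 had 115 to 196 FPKM in Ad-GFP and 143 to 232 in Ad-h-NR4A2, and Rpl3l had 199 to 332 and 255 to 394 FPKM, both with overlapping groups. Their log2 fold changes of 0.32 ± 0.14 and 0.31 ± 0.13 missed the threshold (adjusted p = 0.07964 and 0.06838), but both were higher in 6 of 6 pairs and passed with the block (adjusted p = 0.0002164 and 2.065e-05).

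Rpl36al and Rpl36a code for nearly the same protein and were listed at similar levels, 304 ± 13.2 and 302 ± 21.2 FPKM in Ad-GFP. Rpl36al was called higher (log2 fold change 0.20 ± 0.05, adjusted p = 0.003387) and Rpl36a was not (0.14 ± 0.06, adjusted p = 0.05943, with the block 0.002259), while their ratio went from 1.01 ± 0.043 to 1.05 ± 0.047 (exact permutation test, p = 0.158, adjusted 0.2633). Rps4y2 stood at 7.76 to 15.3 FPKM in Ad-GFP and 6.84 to 14.7 in Ad-h-NR4A2, near 0.012 of the level of Rps4x in both groups (exact permutation test, p = 0.8593), and Rpl39l was at 0 in 1 sample and was not compared. Rpl26 and Rpl39 had log2 fold changes of -0.02 (95% interval -0.10 to 0.07) and 0.01 (95% interval -0.09 to 0.11). Reads of near-identical copies, such as Rpl37a and Rpl37a-ps1, whose transcripts are listed at the same place of chromosome 9, can be shared between the names, so that their separate values are uncertain.

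**Figure D4:**
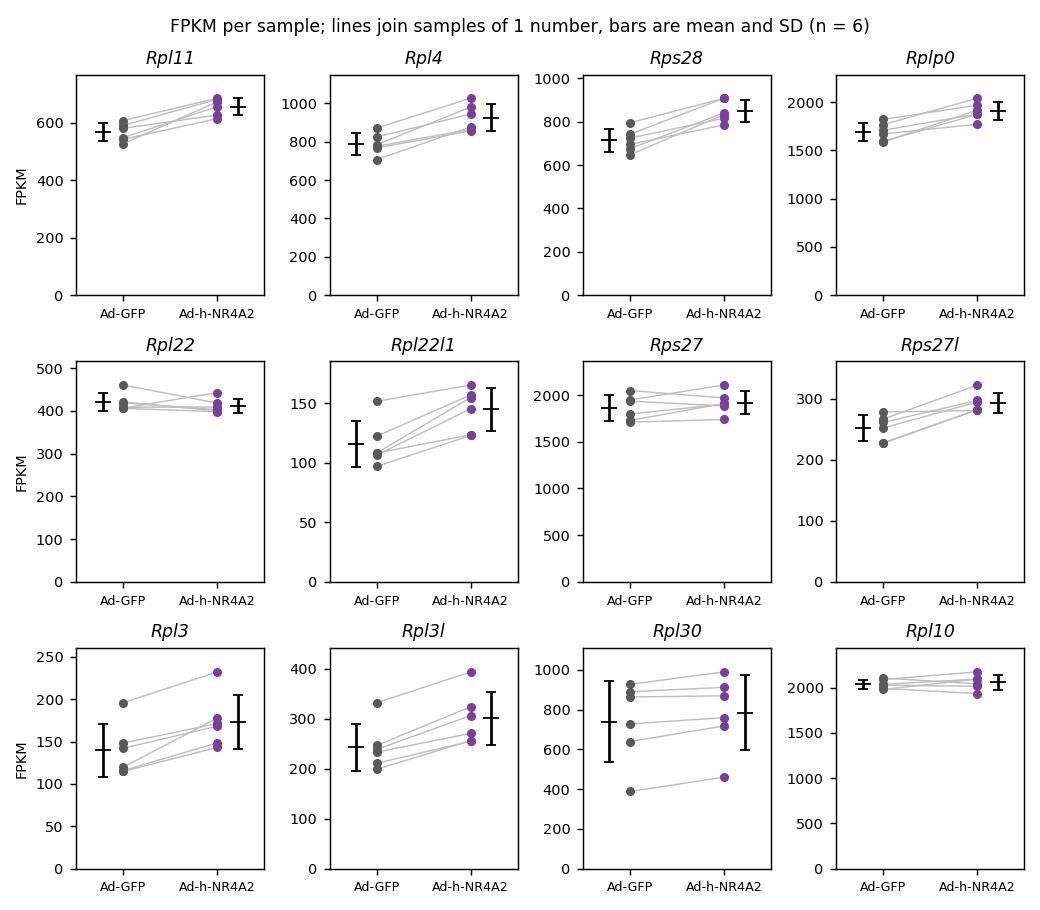
FPKM in each sample for 12 members in Ad-GFP and Ad-h-NR4A2, with lines between samples of the same number and the mean and SD of 6 samples at the side of each group; each vertical axis starts at 0. Rpl11 and Rps27l do not overlap between groups, Rpl3, Rpl3l, and Rpl30 differ more between numbers than between groups, and Rpl22 and Rpl10 lie at the same level in both.

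The fold change went with the length of the transcript within the members. The 18 members above 100 FPKM with transcripts of 801 nt or longer had a median log2 fold change of 0.15 and 9 calls, the 30 of 501 to 800 nt one of 0.10 and 10 calls, and the 28 of up to 500 nt one of 0.06 and 2 calls (Rps28 and Rpl36al). Over the 76 members, Spearman's rho between length and log2 fold change was 0.53, and over 973 other genes above 100 FPKM it was -0.11; both are descriptions over genes that share the same 12 libraries. In other genes the medians were -0.02 up to 500 nt, 0.04 from 501 to 800 nt, and 0.00052 from 801 to 3000 nt. Calls there became more frequent with length in both directions. Other genes called higher were 5 of 59, 26 of 143, and 168 of 678. Those called lower were 6 of 59, 17 of 143, and 142 of 678, whereas members had 0 lower calls in each class. Other genes longer than 3000 nt were in none of these classes but entered the rho. Called members had a median length of 715 nt and a median level of 707 FPKM, and those not called 506 nt and 1023 FPKM. The mean fragment length implied by the FPKM, which enters the effective length and so weighs most on short transcripts, was 157 to 169 nt in Ad-GFP and 155 to 165 nt in Ad-h-NR4A2, and its part in the relation was not tested.

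**Figure D5:**
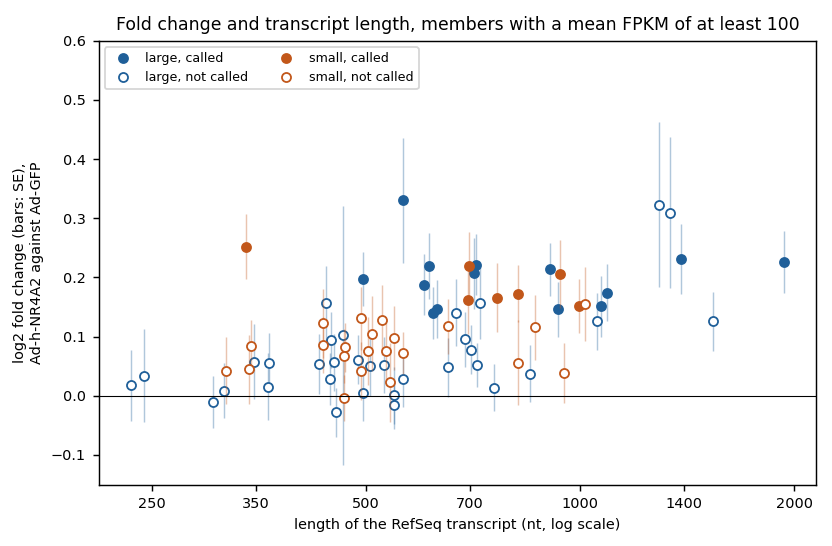
Log2 fold change with its SE against transcript length (log scale, nucleotides) for 76 members with a mean FPKM of at least 100; filled points have an adjusted p below 0.05. Members of up to 500 nt lie mostly below 0.1, and most filled points stand right of 600 nt.

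Genes that act on the ribosome from outside were read from lists of their own. Of 57 tested factors of ribosome assembly, 29 were called higher and 1 lower (with the block 41 and 1), with a median log2 fold change of 0.17. Over all genes tested, 19.3% were called higher and 21.7% lower, and with the block 27.1% and 32.3%, against which the counts of these lists are to be read. The largest among the 29 was Nob1, the nuclease that trims the end of 18S rRNA, which went from 41.3 ± 4.61 to 75.8 ± 4.64 FPKM (SD, n = 6; log2 fold change 0.88 ± 0.07, adjusted p = 5.716e-07). Nop58, a core protein of the snoRNPs that methylate rRNA, had a log2 fold change of 0.54, the helicase Ddx18 one of 0.51, and the rRNA methyltransferase Nop2 one of 0.41 (adjusted p = 7.445e-06, 7.499e-06, and 0.0005531). In all 4, the lowest Ad-h-NR4A2 sample was above the highest Ad-GFP sample.

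Of 13 tested genes of RNA polymerase I, the enzyme that transcribes the large rRNA precursor, 6 were called higher and 1 lower (with the block 9 and 1; median 0.16). The subunit gene Polr1e had a log2 fold change of 0.35 and Cd3eap, another subunit, one of 0.32 (adjusted p = 0.01541 and 0.002397), and Taf1b, part of its promoter factor, one of 0.29 (adjusted p = 0.02636), whose call was lost without any 1 of Ad-GFP samples 28 and 29 and Ad-h-NR4A2 samples 25 and 29 (adjusted p = 0.05717 to 0.06048). The 1 called lower was Ubtf, which opens the rRNA gene for the enzyme, from 16.2 ± 1.06 to 12.7 ± 1.01 FPKM (log2 fold change -0.35, adjusted p = 0.0006327).

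Of 19 other mRNAs known for a TOP tract, 7 were called higher and 1 lower (with the block 8 and 3), with a median log2 fold change of 0.07, against 19.3% higher and 21.7% lower over all genes. Pabpc1, the poly(A) binding protein, had the largest (0.57, adjusted p = 3.822e-05), followed by Hnrnpa1 (0.41), Eef1a1, the elongation factor that brings in aminoacyl-tRNA (0.33), and Eif3f (0.28). Of 3 ribosome genes whose symbols fall outside the rule, Gnb2l1, known as RACK1 and also counted among the 7, was called higher (log2 fold change 0.14, adjusted p = 0.04619), and Fau, whose protein is cut to give RPS30, was not (0.05). The call of Gnb2l1 was lost without any 1 of 10 of the 12 samples (Ad-GFP 24 to 28 and Ad-h-NR4A2 24 to 27 and 29; adjusted p = 0.05587 to 0.09954).

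Among 22 tested regulators of ribosomal protein mRNAs, 4 were called higher and 6 lower (with the block 7 and 11; median -0.10), shares near those over all genes (19.3% and 21.7%; with the block 27.1% and 32.3%). Myc, a transcription factor that drives ribosome genes, lay between 18.1 and 29.1 FPKM in Ad-GFP and between 37.1 and 47.0 FPKM in Ad-h-NR4A2, with a log2 fold change of 0.77 ± 0.12 (adjusted p = 0.0001856). Eif4e, the cap binding protein, rose from 83.0 ± 4.55 to 122 ± 4.43 FPKM (log2 fold change 0.56, adjusted p = 3.403e-07). Mlst8, a subunit of the mTOR complexes, had a log2 fold change of 0.33 and Tsc2, an inhibitor upstream of mTOR, one of -0.36 (adjusted p = 0.01121 and 0.02663); the call of Tsc2 was lost without any 1 of Ad-GFP samples 24, 26, and 28 and Ad-h-NR4A2 samples 25, 27, and 29 (adjusted p = 0.05096 to 0.06088).

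The promoters were also searched, on both strands, for the monomer site of NR4A receptors (NBRE, letters AAAGGTCA), since NR4A2 was the factor expressed. It was in 2 of 67 member promoters (2.99%) and in 1.43% of all promoters. The 2 were Rpl34 and Rpl39, neither of which was called, and the 30 bases that hold the match (in capitals, on the opposite strand in Rpl34) are shown because these are the only matches among members.
Rpl34 (chr2:221962299-221962328, minus strand): gcagtcacattTGACCTTTgaactcgcccg
Rpl39 (chrX:121196091-121196120, minus strand): ggttacttctgAAAGGTCAcctaccacggc

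Other motifs were commoner in the members than in all promoters or about as common. The ETS motif CCGGAAG was in 29.9% of member promoters and 8.75% of all, the GC box GGGCGG in 59.7% and 33.1%, the E box CACGTG, which MYC can bind, in 7.46% and 6.42%, and the TATA box TATAAA in 11.9% and 14.2%. In members above 100 FPKM, the E box was in 3 of 16 called and 2 of 44 not called, the TATA box in 4 and 3, the ETS motif in 3 and 15, and the GC box in 8 and 26. A match is a string of letters and not a bound site.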

How the data were processed

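Polyadenylated RNA was sequenced with a stranded kit as paired ends, in 1 run of 12 samples. As the paper states, the authors aligned reads to Rn5 with STAR and quantified RefSeq transcripts with Cufflinks; the deposited FPKM values are fragments per kilobase of transcript, scaled to the mapped fragments of a sample, and how reads with several matches were counted is not given in the sources used here. The limits deposited beside FPKM equal it in 225016 of 225024 values and were not used.

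Groups and numbers (24 to 29) came from the sample titles, which do not say what a number stands for. A name with several transcripts took the one with the highest mean. Log2(FPKM + 0.1) of the 10950 names above 0 in all 12 samples was fitted with limma 3.58.1 (R 4.3.3; eBayes with trend, no block, two-sided, Benjamini-Hochberg), and single values were compared by exact permutation. Group deviations of same-numbered samples correlated in all 6 numbers (0.35 to 0.62 over all genes), so that the numbers pair the samples, and the block was an alternative. The members and lists were chosen with earlier results of these data known, and the length classes and promoter motifs after the values were seen; none of these supports a direction on its own. Named were up to 6 called members per subunit with the largest change, those past a fold of 1.5, the paralog pairs, members chosen for their role, the 5 highest and 5 lowest, and up to 4 called genes of each other list. Depth was recovered from low FPKM as whole fragments (99.4 to 99.9% within 0.05). The fit was tested on simulated data. Python 3.11.15, pandas 2.3.3, SciPy 1.17.1, and Matplotlib 3.10.9 were used. Some genes counted in the totals are not reported here by name or drawn in the plots that name genes.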

Additional observations from a re-analysis of the deposited data

Results flagged for a closer look

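Of 124 sample groups of named genes, 6 held 1 sample far from the other 5 of its group, and chance gives about 1 in 20. Rpl22 stood at 460.4 FPKM in Ad-GFP sample 29, compared with 406 to 421 in the other 5. Rpl3l stood at 332 FPKM in Ad-GFP sample 27, compared with 199 to 247. Rps4x-ps1 had 0.0403 FPKM in Ad-GFP sample 24 and Rps6 had 0.215 FPKM in Ad-GFP sample 26, with 0 in the other 5 in both cases, which amounts to at most 3 fragments. Eif4e was lower in Ad-h-NR4A2 sample 28, at 113.5 FPKM compared with 121.5 to 125.1, and Myh6, the main cardiac myosin heavy chain, was lower in Ad-GFP sample 28, at 953 FPKM compared with 1137 to 1229.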

How the results depend on the processing

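The count of 23 members called higher stayed between 19 and 30 under the other pseudocounts, filters, scalings, and transcript rules, and 0 were called lower in every alternative run. It moved to 47 with the sample number as a block, and to 17 to 36 when 1 sample was left out, where 36 were called without Ad-GFP sample 29. The count of 2 with a fold of at least 1.5 was 1 with a mean FPKM of at least 1 required, 1 with a fold limit of 2, 0 without names of several transcripts, and 2 to 3 when 1 sample was left out. Some members that were not called changed sign. On the TPM scale the log2 fold changes of Rpl10, Rpl39, and Rplp1 were -0.0055, -0.0101, and -0.0149. With quantile normalization those of Rpl39, Rpl41, Rplp1, Rps29, and Rps4y2 were -0.0514, -0.0254, -0.02, -0.027, and 0.021. Scaled on the other genes, Rpl26 and Rps4y2 had 0.0035 and 0.0152. When 1 sample was left out, they ran from -0.0024 to 0.0314 in Rpl10, -0.0292 to 0.0075 in Rpl26, -0.0098 to 0.0338 in Rpl39, -0.0162 to 0.0238 in Rplp1, and -0.0968 to 0.1237 in Rps4y2. Members above 0 were 72 on the TPM scale and with quantile normalization and 82 when scaled on the other genes, where the median of all genes was -0.04, -0.04, and -0.01. The causes were not tested. The block changed the calls of Rpl3, Rpl3l, Rpl8, Rpl30, Rpl36a, and Rpsa, whose values stand in the report, and no other call of a member described there with its values. The values of the 6 names listed at 2 places rest on at most 28 fragments.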

Other observations

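Rps16, picked after its values were seen, followed the sample number like Rpl30 did. It stood at 749.8 FPKM in Ad-GFP and 769 FPKM in Ad-h-NR4A2 in number 24, and at 551 to 678 FPKM in the other 10 samples.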
